A study of Mus musculus with 6 samples.

Results

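The voltage-gated and related ion channels were followed across liver tumors of wild-type (WT) and Nr2e3-/- mice, as the genes whose symbols begin with Kcn, Cacn, Scn followed by a digit, or Hcn followed by a digit. Of the 24063 genes in the count table, 141 matched, and 40 of these were chosen by a mean of at least 10 raw counts over the 6 libraries. All 40 passed the filter on low counts and were among the 13572 genes tested, 101 matching genes fell below the threshold, and 19 of those had 0 counts in every library. Just inside the threshold were Kcnn4 (mean count of 10.2) and Kcne4 (10.3), and just outside it were Kcnrg (8) and Cacng7 (7.17). The families were selected on the values of Cacna1b and Hcn3, already known to be lower in Nr2e3-/- tumors, so that both genes are given here as a description with no test.

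RNA was taken from liver tumors of male C57BL/6 mice, in 3 WT (NR2E3+/+) and 3 Nr2e3-/- libraries. Per the study's methods all mice, WT included, had received 1 intraperitoneal injection of diethylnitrosamine (DEN, a liver carcinogen) at 25 mg per kg at 15 days of age, and the tumors belong to the 24-week time point. NR2E3 is an orphan nuclear receptor. The labels give no cell-specific promoter or Cre, and untreated or tumor-free liver was not part of the comparison. The study's methods give 3 each for the tumor tissues of WT and Nr2e3-/- mice. They do not say outright that each library came from a different mouse. The p-values below therefore measure the spread between these libraries. Total counts ranged from 15376261 to 28690279 per library, and the smallest library was Nr2e3-/- replicate 1. Nr2e3 had 0 counts in all 6 libraries, so the count table does not check the genotype. Hepatocyte markers summed to between 123000 and 152000 CPM (counts divided by library sizes that were scaled by the trimmed mean of M values) in WT tumors and to between 109000 and 129000 CPM in Nr2e3-/- tumors. Nr2e3-/- replicate 1 stood apart from the other 2 of its group in the number of genes called without it, given below.

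Ion channels of these families are membrane pores that pass calcium, sodium or potassium when the membrane voltage, calcium or a metabolite changes. Each channel consists of pore-forming subunits and accessory subunits that set its traffic to the membrane and its gating. They are best known from nerve, heart and muscle. In the liver, potassium channels help to set the hepatocyte membrane voltage that drives bile acid and amino acid transport, and channels of ducts, vessels, nerves and immune cells add to the RNA of bulk tissue. A lower level in such tissue can come from fewer cells of a type or from less RNA per cell, which cannot be told apart here.

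The start regions of 3 channel genes are shown because they stand for the patterns described below: Cacna1b was lower in every Nr2e3-/- library, Kcnt2 was higher in 2 of the 3, and Kcnk5 varied most between the Nr2e3-/- libraries. Each window runs from 250 bases before to 50 bases after the annotated start, 5' to 3' on the gene's own strand, from RefSeq on GRCm38.p6. Capitals mark GGGCGG (the GC box that Sp1-type factors bind) and AAGTCA (the core site of NR2E3-type receptors), each searched on both strands, so that CCGCCC or TGACTT is the same motif on the other strand. The windows are chr2:24763103-24763402 (minus strand) for Cacna1b, chr1:140245468-140245767 (plus strand) for Kcnt2 and chr14:20181733-20182032 (minus strand) for Kcnk5.
Cacna1b: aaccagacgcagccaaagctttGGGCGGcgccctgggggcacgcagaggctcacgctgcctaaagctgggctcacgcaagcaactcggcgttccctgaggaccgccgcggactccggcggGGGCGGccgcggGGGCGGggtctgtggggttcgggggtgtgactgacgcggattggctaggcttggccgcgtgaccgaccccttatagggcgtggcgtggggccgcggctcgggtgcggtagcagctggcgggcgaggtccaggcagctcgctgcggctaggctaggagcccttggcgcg
Kcnt2: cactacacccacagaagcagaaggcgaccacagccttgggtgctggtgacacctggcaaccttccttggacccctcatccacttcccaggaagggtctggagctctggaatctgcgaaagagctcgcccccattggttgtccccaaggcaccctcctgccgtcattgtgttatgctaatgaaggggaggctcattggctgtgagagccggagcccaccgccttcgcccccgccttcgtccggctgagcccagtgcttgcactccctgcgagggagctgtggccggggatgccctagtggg
Kcnk5: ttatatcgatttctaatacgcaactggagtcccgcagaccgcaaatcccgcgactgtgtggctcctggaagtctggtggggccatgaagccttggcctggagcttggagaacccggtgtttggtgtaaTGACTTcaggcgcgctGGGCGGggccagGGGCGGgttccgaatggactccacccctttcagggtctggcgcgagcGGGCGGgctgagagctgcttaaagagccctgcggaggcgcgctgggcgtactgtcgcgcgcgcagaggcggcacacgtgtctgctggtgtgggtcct
The Cacna1b window held 3 GC boxes and no AAGTCA and had a GC content of 72.3%. The Kcnt2 window had a GC content of 62.7% and neither motif, and the Kcnk5 window had 63.7%, 3 GC boxes and 1 AAGTCA. Of the 40 channel genes, 30 matched the RefSeq table, with 51 windows. GGGCGG was present in 47.1% of these and in 35.7% of all 32851 windows, and AAGTCA in 11.8% against 15.1%. These matches describe the letters in the windows and do not show that a factor was bound.

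Across the set, 30 of the 40 channel genes had a log2 fold change (Nr2e3-/- minus WT) below 0 and 10 had one above 0. The share below 0 was 75% among the channels and 49.2% among all genes tested. Without Cacna1b and Hcn3, 28 of 38 lay below 0, or 73.7%, and the median log2 fold change was -0.45, with quartiles of -0.68 and 0.03, beside a median of 0.01 over all genes. Among the 9951 genes with a mean count between 10 and 1000, 51.9% lay below 0 and the median was -0.02. The sign of the change was the same under another scaling of the libraries for every member except Kcnj15, which lay at 0.04 and turned negative under upper quartile scaling. That scaling put 31 of the 40 channels and 59.4% of all genes below 0. Without Nr2e3-/- replicate 1, 31 of 40 lay below 0. The threshold itself favours one direction, since 8 members (Cacna1a, Cacnb3, Kcnab1 and Kcne4 among them) reached the mean of 10 counts only through the WT libraries, which were deeper on average, and 1 (Kcns3) only through the Nr2e3-/- libraries. Those 8 all lay below 0. Of the 31 members with a mean of at least 10 counts in each group, 22 lay below 0, and 5 were lower and 1 higher at an unadjusted p under 0.05 in edgeR, Cacna1b and Hcn3 included.

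**Figure D1:**
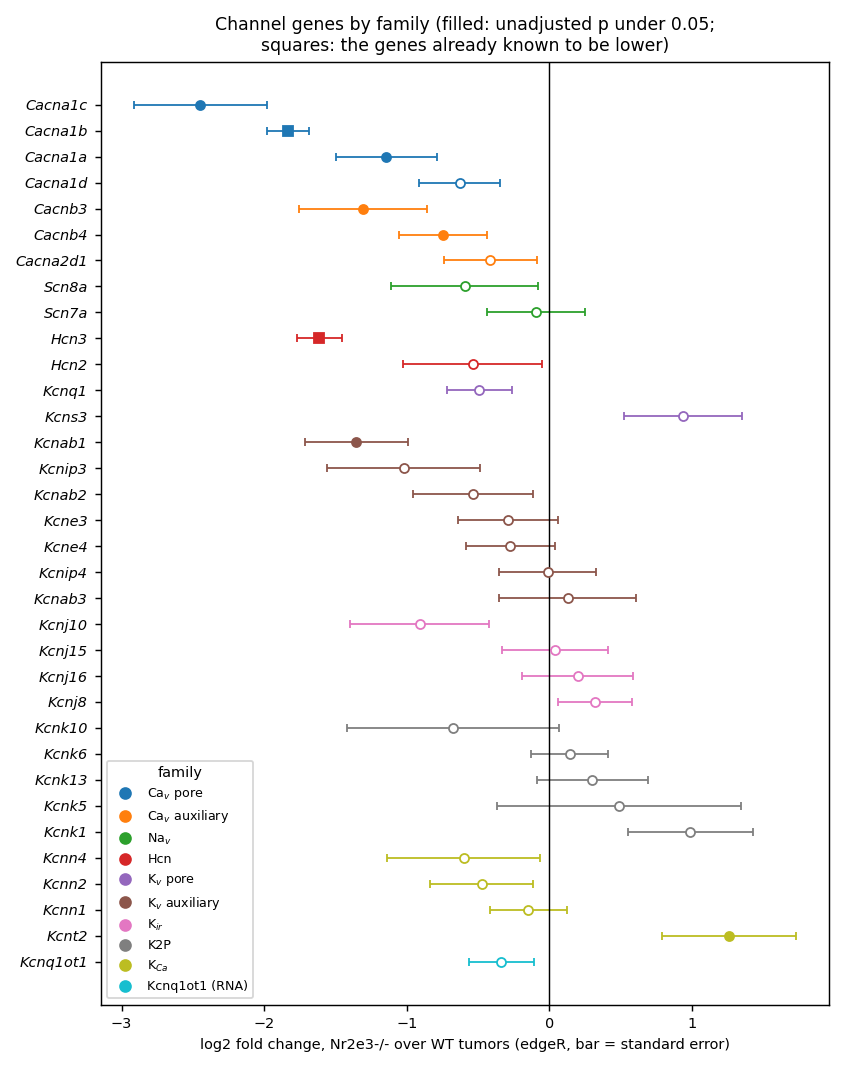
Log2 fold change (Nr2e3-/- over WT, x axis) of 34 channel genes (y axis), grouped and coloured by family, with bars for the standard error; filled symbols have an unadjusted p under 0.05 and squares mark Cacna1b and Hcn3. Of the 34 genes, 24 lie left of 0, and Kcnt2 is the single filled symbol to the right.

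By edgeR's quasi-likelihood test with Benjamini-Hochberg adjustment over all genes, 2 channels were lower at an adjusted p under 0.05 and 0 were higher. The 2 were Cacna1b and Hcn3, which prompted the choice of the families, so that nothing is read from this count. Over all genes tested, 0.0295% were called lower and 0.0663% higher. At an unadjusted p under 0.05, 8 channels were lower, among them Cacna1a, Cacna1b, Cacna1c, Cacnb3, Cacnb4, Hcn3 and Kcnab1, where 9.72% of all genes were lower. Leaving out the prompting pair, 6 of 38 were lower, or 15.8%. These 6 include Cacna1a, Cacnb3 and Kcnab1, which reached the mean of 10 counts only through the WT libraries. Of the 31 members that reached it in each group, 5 were lower, the prompting pair included. The 15.8% is therefore not read as an excess over all genes. A single channel, Kcnt2, was higher at that level, where 11.8% of all genes were. The groups did not overlap for 10 channels that were lower in Nr2e3-/- tumors, against 12.9% of all genes, and for 1 that was higher (Kcnk1), against 13.9% of all genes. Beyond Cacna1b and Hcn3 these 10 were Cacna1a, Cacna1c, Cacna2d1, Cacnb3, Kcnab1, Kcne4, Kcnj10 and Kcnq1. Of these, Cacna1a, Cacnb3, Kcnab1 and Kcne4 entered the set only through their WT level, which favours separation on the lower side. The count of 10 is therefore not read as an excess over the share of all genes. No channel outside the prompting pair passed the adjusted threshold in this fit.

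The calls depended on the test and on single libraries. DESeq2 called 3 of 39 channels lower at an adjusted p under 0.05, adding Cacna1c to the pair, where it called 3.06% of all genes lower. It called 0 higher, against 4.87% of all genes, and 1 channel was higher in edgeR at an unadjusted p under 0.05. Without Nr2e3-/- replicate 1, edgeR called 7 of 40 channels lower, against 9.65% of all genes, and 1 higher (Kcnt2), against 12.2%. The 7 include Cacna1b and Hcn3, which prompted the choice of the families. Cacna1c, Cacna1d, Kcnk10 and Kcnn2 were among the others. Over all genes that fit called 3022, where the fit with all 6 libraries called 13. Leaving out WT replicate 1, WT replicate 3 or Nr2e3-/- replicate 3 gave 0 calls over all genes.

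The pore subunits of voltage-gated calcium channels, which open on depolarization and let calcium into the cell, lay on the lower side together. All 4 measured members of 10 symbols lay below 0, where the median log2 fold change was -1.49, or -1.14 without Cacna1b, and the median ranged from -1.58 to -1.44 in the alternatives that kept all 4. That range includes Cacna1b. The 2 members with no exon overlap, Cacna1b and Cacna1c, had a median of -2.14. Since the families were selected on Cacna1b, only Cacna1c remains there, and this median is no check on the family. The summed level of the 4 genes was 46.5, 46.2 and 45.6 CPM in WT tumors and 31.6, 15.9 and 23.1 CPM in Nr2e3-/- tumors. Cacna1b, on which the families were selected, is part of these sums. Without it the sum of the other 3 genes was 33.0, 34.0 and 34.3 CPM in WT tumors and 28.1, 12.6 and 19.5 CPM in Nr2e3-/- tumors. The groups did not overlap, and Nr2e3-/- replicate 1 lay nearest to the WT libraries, with means of 33.7 ± 0.690 and 20.1 ± 7.79 CPM (SD, n = 3 each).

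Cacna1b, the pore of the N-type channel of nerve endings (chr2:24603887-24763152, GRCm38), was at 13.6, 12.2 and 11.3 CPM in WT tumors and at 3.44, 3.34 and 3.62 CPM in Nr2e3-/- tumors. Every Nr2e3-/- library lay far below the lowest WT library, and the means of 12.4 ± 1.13 and 3.47 ± 0.143 CPM (SD, n = 3 each) go with a fitted level 3.56-fold lower. Its exons overlap those of no other annotated gene. Summed nerve and glia markers were also lower in every Nr2e3-/- library, at 17.2, 15 and 16.9 CPM in WT tumors and 12.2, 10.9 and 10.7 CPM in Nr2e3-/- tumors, and their part in the Cacna1b level was not tested. Cacna1c, the pore of the L-type channel of heart and smooth muscle (chr6:118587240-119196418), was at 5.72, 3.35 and 1.73 CPM in WT tumors and at 0.596, 0.705 and 0.649 CPM in Nr2e3-/- tumors. The WT libraries spread widely and all lay above the Nr2e3-/- libraries, which were close to each other at 9, 19 and 12 counts. Its log2 fold change was -2.45 (SE 0.47), or 5.45-fold lower, with an unadjusted p of 0.00112 and an adjusted p of 0.0930 in edgeR, 0.000217 in DESeq2 and 0.0294 in edgeR without Nr2e3-/- replicate 1. Over 16 alternatives its adjusted p reached 0.338, without WT replicate 1.

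Cacna1d, an L-type pore that opens at more negative voltages and is known from pacemaker and endocrine cells, was the most abundant calcium channel pore. It was at 26.6, 29.6 and 31.5 CPM in WT tumors and at 27.0, 11.5 and 18.5 CPM in Nr2e3-/- tumors. Nr2e3-/- replicate 1 lay within the WT range and the other 2 below it, with a log2 fold change of -0.63 (SE 0.28) and an adjusted p of 0.251 in edgeR. Without that replicate the change was -0.96 with an adjusted p of 0.0224. Of the exonic bases of Cacna1d, 589 (4.67%) overlap the gene Chdh on the opposite strand, and the kit does not mark strand. Cacna1a, the P/Q-type pore of nerve endings, was low, at 0.653, 0.981 and 1.04 CPM in WT tumors and 0.530, 0.371 and 0.325 CPM in Nr2e3-/- tumors. It reached the threshold only through its WT level. Its groups did not overlap, and its log2 fold change of -1.14 (SE 0.35) had an unadjusted p of 0.0139 and an adjusted p of 0.149.

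Accessory subunits of the calcium channels lay on the same side. The 3 measured members of 16 symbols were all below 0. Their median log2 fold change was -0.75, and their levels summed to 5.55 ± 0.738 CPM in WT and 3.42 ± 0.882 CPM in Nr2e3-/- tumors (SD, n = 3 each). Cacnb4, a cytoplasmic beta subunit that brings the pore to the membrane, was at 2.46, 3.59 and 3.68 CPM in WT tumors and 2.58, 1.30 and 2.0 CPM in Nr2e3-/- tumors. Nr2e3-/- replicate 1 again overlapped the WT range, and the change of -0.75 (SE 0.31) had an unadjusted p of 0.0455 and an adjusted p of 0.224 in edgeR. Of the exonic bases of Cacnb4, 1433 (16%) overlap A430018G15Rik on the opposite strand, so that reads from them cannot be assigned by strand. Cacnb3, another beta subunit, was at 0.730, 1.15 and 0.520 CPM in WT tumors and 0.463, 0.260 and 0.270 CPM in Nr2e3-/- tumors, on 5 to 7 counts in each of the latter, and it too entered the set only through its WT level. The groups did not overlap, with a change of -1.31 (SE 0.45), an unadjusted p of 0.0213 and an adjusted p of 0.170. Cacna2d1, the extracellular subunit that binds gabapentin, was at 1.57, 1.49 and 1.46 CPM against 1.39, 1.34 and 0.649 CPM. Its libraries separated by a narrow margin, and the change of -0.42 (SE 0.33) had an adjusted p of 0.476.

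**Figure D2:**
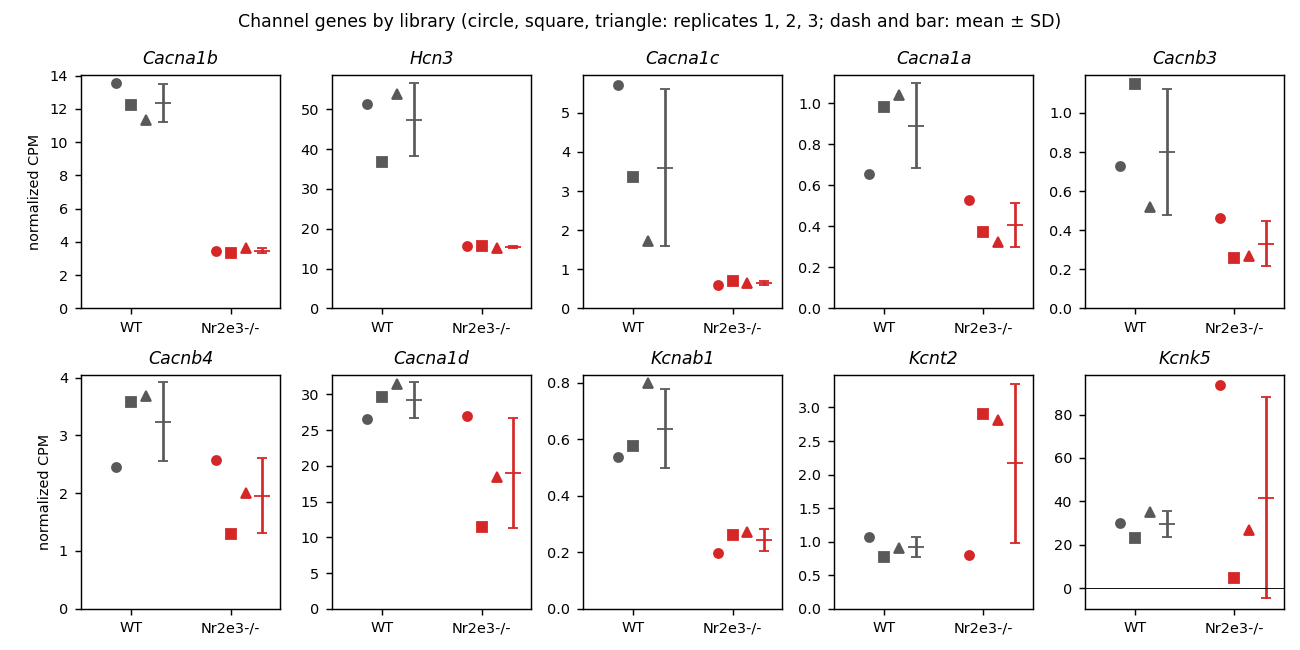
Level in CPM (y axis) of 10 channel genes in each WT and Nr2e3-/- library (points), with the group mean and SD. Cacna1b and Hcn3 separate with little spread among Nr2e3-/- libraries, Cacna1c separates with a wide WT spread, and Kcnk5 runs from 4.46 to 93.4 CPM within the Nr2e3-/- group.

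Among the voltage-gated sodium channels, which carry the rising phase of the action potential, all 4 measured members of 14 symbols were below 0, with a median of -0.64. Scn8a, a pore subunit of neurons, was at 19.4, 21.5 and 6.73 CPM in WT tumors and 11.5, 15 and 4.87 CPM in Nr2e3-/- tumors. Replicate 3 was the lowest in both groups, which overlapped, and the change of -0.59 (SE 0.51) had an adjusted p of 0.517. Scn7a, a sodium-sensing member of the family, lay at -0.09 (SE 0.34).

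Hyperpolarization-activated channels pass the pacemaker current of heart and nerve cells, and 2 of 4 symbols were measured. Hcn3 (chr3:89146074-89160196) was at 51.4, 36.8 and 53.9 CPM in WT tumors and at 15.6, 15.7 and 15.2 CPM in Nr2e3-/- tumors. The Nr2e3-/- libraries agreed closely and all lay below the lowest WT library, with means of 47.4 ± 9.24 and 15.5 ± 0.216 CPM (SD, n = 3 each) and a fitted level 3.06-fold lower. Of its exonic bases, 711 (17.1%) overlap the gene Pklr, which encodes the liver pyruvate kinase, on the opposite strand, and the kit does not mark strand, so that reads from these bases cannot be assigned to either gene. Hcn2 was far lower, at 0.691, 1.12 and 0.486 CPM in WT tumors and 0.265, 0.483 and 0.811 CPM in Nr2e3-/- tumors. Its groups overlapped, with a change of -0.54 (SE 0.49) and an adjusted p of 0.535, and most of the lower Hcn sum came from Hcn3.

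**Figure D3:**
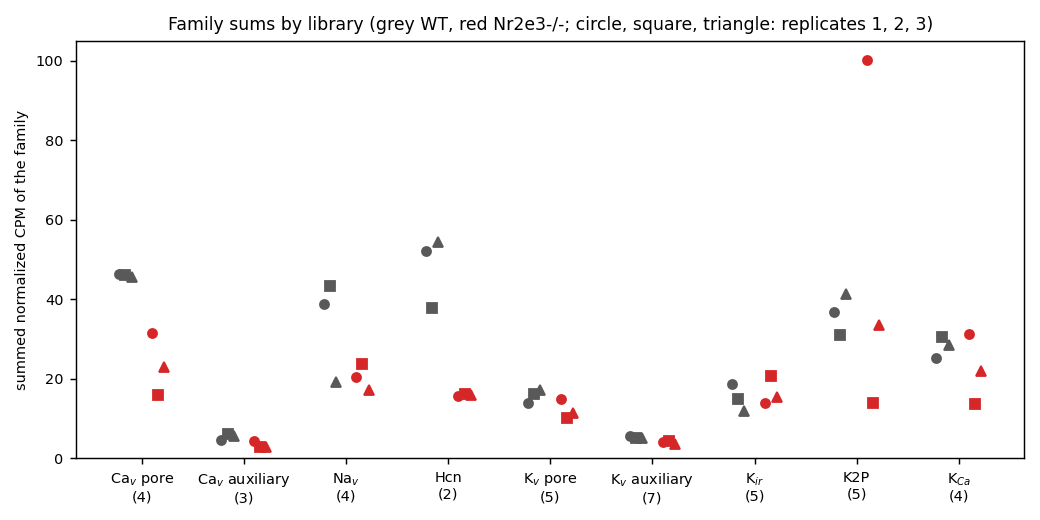
Summed level in CPM (y axis) of the measured members of each channel family in each WT and Nr2e3-/- library. The calcium channel pores, Cacna1b included, sum to 45.6 to 46.5 CPM in WT and 15.9 to 31.6 CPM in Nr2e3-/- tumors, whereas the tandem-pore potassium channels overlap, with means of 36.4 ± 5.24 and 49.3 ± 45.2 CPM (SD, n = 3 each).

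The voltage-gated potassium channel pores, which repolarize the membrane, were mostly below 0. Of 5 members measured among 40 symbols, 4 were below 0 and the median was -0.49, or 0.18 for the 2 with no exon overlap. Kcnq1, an epithelial and cardiac pore, was at 1.92, 1.79 and 1.70 CPM against 1.13, 1.30 and 1.41 CPM, which did not overlap (-0.49, SE 0.23, adjusted p 0.260). The single member above 0 was Kcns3, a subunit that forms no channel on its own, at 0.93 (SE 0.41, adjusted p 0.244).

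Of the accessory subunits of these potassium channels, 7 of 13 symbols were measured and 6 lay below 0, with a median of -0.29. Kcnab1, Kcne4, Kcnip3 and Kcnip4, all below 0, entered the set only through their WT level, which favours the lower side. The count of 6 and the median are therefore not read as a direction of this family. Of the other members, Kcnab2 and Kcne3 lay below 0 and Kcnab3 above it. Kcnab1, a cytoplasmic beta subunit related to oxidoreductases, was at 0.538, 0.575 and 0.798 CPM in WT tumors and 0.199, 0.260 and 0.270 CPM in Nr2e3-/- tumors. All Nr2e3-/- libraries were lower, on 3, 7 and 5 counts, so that the gene entered the set only through its WT level. It had a change of -1.35 (SE 0.36), an unadjusted p of 0.00694 and an adjusted p of 0.127. Kcne3, a partner of Kcnq1 in epithelia, was at 2.11, 1.08 and 1.6 CPM against 1.39, 0.928 and 1.62 CPM. Its groups overlapped, with a change of -0.29 (SE 0.35). Kcnab3, another beta subunit, was at 0.13 (SE 0.48), and the remaining members (Kcnab2, Kcne4, Kcnip3 and Kcnip4) ranged from -1.02 to -0.01. Kcnq1ot1, an antisense RNA from within Kcnq1 that matches the symbol rule and encodes no channel, was at -0.34 (SE 0.23, adjusted p 0.420), and reads from its overlap with Kcnq1 cannot be assigned by strand.

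Potassium channels that open without depolarization lay on both sides of 0. Of the inward rectifiers, which hold the resting voltage, 5 of 15 symbols were measured, 3 above and 2 below 0, with a median of 0.04. Kcnj8, the pore of the ATP-sensitive channel of vessel walls and pericytes, was at 12.7, 9.41 and 6.66 CPM in WT tumors and 9.53, 14.1 and 12.2 CPM in Nr2e3-/- tumors. The groups overlapped, with a change of 0.32 (SE 0.26) and an adjusted p of 0.489. Kcnj10, which buffers potassium in glia and kidney, was at 1.46, 1.56 and 1.42 CPM against 0.662, 1.34 and 0.270 CPM, all below the WT libraries, with a change of -0.91 (SE 0.49) and an adjusted p of 0.315. Kcnj16, a partner of Kcnj10, lay at 0.20 (SE 0.39).

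Tandem-pore channels carry the background leak of potassium, and 4 of the 5 measured members of 14 symbols were above 0, with a median of 0.30. Kcnk5 (TASK-2), an epithelial leak channel opened by alkaline pH (chr14:20140057-20181809), was at 30.1, 23.2 and 35.1 CPM in WT tumors and at 93.4, 4.46 and 27.0 CPM in Nr2e3-/- tumors. The Nr2e3-/- libraries thus held both the highest and the lowest value, and the change of 0.49 (SE 0.85, adjusted p 0.758) ranged from -0.92 to 1.03 when single libraries were left out. Kcnk1, a weak leak channel, was at 0.307, 0.541 and 0.590 CPM in WT tumors and 0.596, 0.817 and 1.46 CPM in Nr2e3-/- tumors. Its groups met without overlap, with a change of 0.99 (SE 0.44) and an adjusted p of 0.244. Kcnk6 lay at 0.14 (SE 0.27) and Kcnk13 at 0.30, while Kcnk10 was at 0.806, 1.83 and 1.25 CPM in WT tumors and 1.99, 0.334 and 0.270 CPM in Nr2e3-/- tumors. Kcnk10 was another gene whose Nr2e3-/- replicate 1 differed from the other 2, with a change of -0.68 over all libraries and -2.06 without it, where its adjusted p was 0.0290. The medians of the inward rectifiers and of the tandem-pore channels each crossed 0 under some alternatives, from -0.34 to 0.11 and from -0.07 to 0.41.

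Of the calcium- and sodium-activated potassium channels, 4 of 13 symbols were measured. Kcnn2, the small-conductance channel opened by calcium through calmodulin and known from liver and nerve, was at 21.0, 25.8 and 24.9 CPM in WT tumors and 27.1, 8.76 and 16.1 CPM in Nr2e3-/- tumors. Replicate 1 of the Nr2e3-/- group lay above all WT libraries and the other 2 below them, with a change of -0.48 (SE 0.36, adjusted p 0.463), and of -0.95 without that replicate, with an adjusted p of 0.0426. Kcnn1 and Kcnn4 lay at -0.15 and -0.60. Kcnt2, a sodium-activated channel, was at 1.08, 0.778 and 0.902 CPM in WT tumors and at 0.794, 2.90 and 2.81 CPM in Nr2e3-/- tumors. Replicates 2 and 3 of the Nr2e3-/- group exceeded every WT library and replicate 1 did not, with a change of 1.26 (SE 0.47), an unadjusted p of 0.0310 and an adjusted p of 0.192, or 0.00848 without replicate 1.

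**Figure D4:**
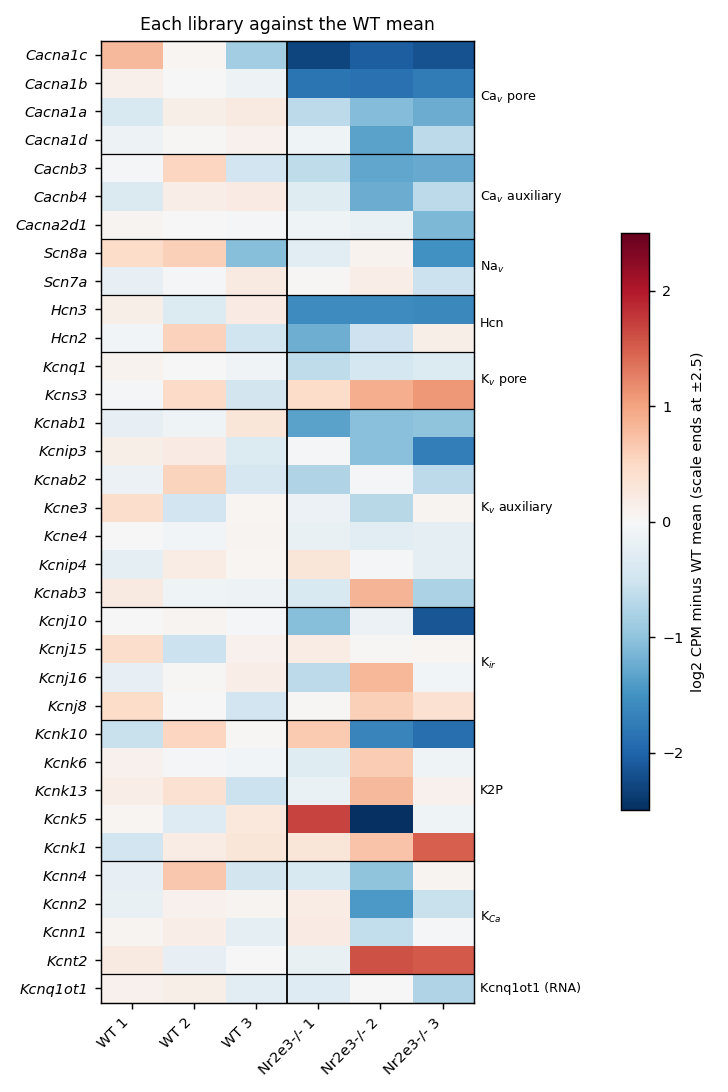
Log2 CPM of 34 channel genes (rows) in each library (columns) minus the WT mean, on a colour scale limited to 2.5 in either direction. Of the 34 genes shown, Cacna1b and Hcn3 included, 16, 20 and 22 lie below all WT libraries in Nr2e3-/- replicates 1, 2 and 3.

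The Nr2e3-/- libraries differed in how far they departed from the WT tumors. In replicate 1, 18 of the 40 channels lay below all WT libraries and 7 above all of them, or 45% and 17.5%, where 33.1% and 32.7% of all genes did. In replicate 2 the channel counts were 24 and 8, or 60% and 20%, against 38.2% and 39.3% of all genes, and in replicate 3 they were 25 and 3, or 62.5% and 7.5%, against 39.6% and 37.5%. These counts include Cacna1b and Hcn3, on which the families were selected. They also include the 8 members that reached the threshold only through the WT libraries. With these members counted, the share below was above that of all genes in each Nr2e3-/- library. It was not taken without them, so that nothing is read from it about the families. Counts of the 40 channels made up between 0.0247% and 0.0258% of each WT library and 0.0238%, 0.0122% and 0.0143% of Nr2e3-/- replicates 1, 2 and 3. Nr2e3-/- replicate 1 holds the high Kcnk5 value named above. At least 10 counts were reached by 37 to 40 channels in the WT libraries and by 25, 34 and 28 in the Nr2e3-/- libraries, which sets how precisely the low genes were measured.

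Levels can be compared between genes only per length, as TPM (counts per exonic length, scaled to the same total in each library). By the mean TPM over the 6 libraries, Kcnk5 was the most abundant channel (29.0), followed by Hcn3 (21.6), and Kcnj8 (11.7), Kcnn2 (7.75), Cacna1d (5.37) and Kcnk6 (2.87) were among the next. Cacna1b, at 2.27 TPM, was in the next group with Scn8a (2.34) and Kcne3 (2.28), and the lowest was Kcnab1 (0.145). With the longest transcript as the length, Kcnk5 and Hcn3 kept the first places and Kcnn2 stood before Kcnj8.

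**Figure D5:**
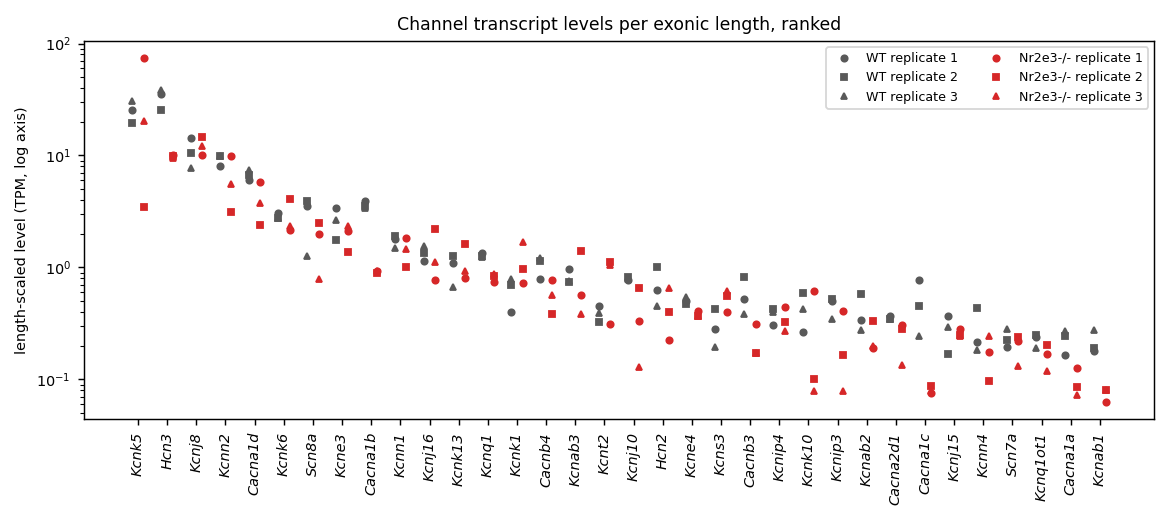
Level per length in TPM (log axis) of 34 channel genes in each WT and Nr2e3-/- library, ranked by the mean of the 6 libraries. Kcnk5 leads at 29.0 TPM with a wide spread, and Hcn3 (21.6 TPM) and Cacna1b (2.27 TPM) show the gap between the groups.

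Channels and pumps outside the symbol rule were set beside these genes from lists chosen by function. Of 73 other ion channels, 43 were tested, of which 31 lay below 0, with a median log2 fold change of -0.21. At an unadjusted p under 0.05, 11 were lower, or 25.6% against 9.72% of all genes, and 1 was higher, or 2.33% against 11.8%. At an adjusted p under 0.05 edgeR called 0 of them, DESeq2 called 4 lower (Itpr3, P2rx7, Trpm4 and Trpm7), and limma-voom, which called 7.91% of all genes lower and 9.48% higher, called 4 lower and 1 higher. P2rx7, the ATP-gated channel of immune cells, was at 7.60, 12.4 and 7.14 CPM in WT tumors and 4.83, 3.86 and 4.27 CPM in Nr2e3-/- tumors (-1.07, SE 0.25, adjusted p 0.109). Itpr3, the calcium release channel of duct cells, was at -1.10 (SE 0.31, adjusted p 0.133), and Lrrc8a, the obligatory subunit of the volume-regulated anion channel, was the one on the higher side, at 0.39 (SE 0.13, adjusted p 0.167). Of 25 cation pumps and exchangers, 22 were tested, with 10 above and 12 below 0 and a median of -0.12. At an unadjusted p under 0.05 in edgeR, 6 were higher, or 27.3% against 11.8% of all genes. On the lower side were 3, or 13.6% against 9.72%. Among the 6 was Atp2a2, the calcium pump of the endoplasmic reticulum (0.61, SE 0.12, adjusted p 0.0930). REST is a repressor of neuronal genes, channel genes included. Rest itself was at 12.4 ± 0.491 CPM in WT and 12.4 ± 3.90 CPM in Nr2e3-/- tumors (SD, n = 3 each), and of 8 measured genes of its complex 4 lay above and 4 below 0.

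Cells other than hepatocytes that carry such channels were followed by marker lists. Of the 8 nerve and glia markers, 5 (Snap25, Stmn2, Sox10 and S100b among them) were under 1 CPM in every library, and the lower sum named above came mostly from Syt1, at 15.8, 13.5 and 15.7 CPM in WT tumors and 11.2, 9.06 and 8.71 CPM in Nr2e3-/- tumors. Tubb3 was higher (2.76, unadjusted p 0.00239), and no gene of the list passed an adjusted p of 0.05 in edgeR, where DESeq2 called 1 higher (Tubb3) and 1 lower (Syt1). Smooth muscle markers summed to 27.4 to 31.3 CPM in WT tumors and 28.1 to 35.6 CPM in Nr2e3-/- tumors. Within that list Tagln was higher (0.36, unadjusted p 0.0106), while Myh11, the smooth muscle myosin, was at 6.34, 6.43 and 5.51 CPM against 5.30, 4.94 and 4.27 CPM, which did not overlap (-0.33, SE 0.17). The part of smooth muscle in the Cacna1c level was not tested.

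Nr2e3-/- replicates 2 and 3, which lay below all WT libraries for Cacna1d, Kcnk10 and Kcnn2 and above them for Kcnt2, also differed from replicate 1 in several lists. Stellate cell and fibroblast markers were at 440, 357 and 393 CPM in WT tumors and at 399, 247 and 220 CPM in Nr2e3-/- tumors, with 7 of 9 below 0 and 0 of 9 at an unadjusted p under 0.05 in edgeR, 0 called by DESeq2 and 4 by limma-voom. Bile duct markers were at 128, 70.8 and 68.8 CPM against 82.9, 439 and 196 CPM, and neutrophil markers at 2.38, 3.25 and 1.70 CPM against 2.45, 23.9 and 15 CPM. Most of the bile duct sum came from Spp1 alone, at 106.8, 46.05 and 47.06 CPM against 56.27, 410.2 and 171.2 CPM. Of the 6 bile duct markers tested, 4 lay above 0 and 2 below it (Krt7 and Sox9). In the sums of all 3 lists, replicate 1 was within the WT range and replicates 2 and 3 lay outside it. Their part in the channel levels was not tested. Macrophage markers were at 210 to 266 CPM in WT and 198 to 411 CPM in Nr2e3-/- tumors, endothelial markers at 274 to 278 and 219 to 288 CPM, lymphocyte markers at 3.69 to 10.3 and 2.70 to 6.31 CPM, and red cell markers at 129 to 180 and 208 to 288 CPM. Neuroendocrine markers stayed at or below 1.39 CPM, with Ins1 and Ins2 at 0, and skeletal muscle markers at or below 0.237 CPM, with Tnnt3 at 0.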

How the data were processed

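RNA was extracted from liver tumors and made into libraries with the TruSeq RNA kit, which does not mark strand. Per the study's methods, reads were aligned to mm10 with TopHat and counted per gene with featureCounts, and the authors deposited raw counts per gene and library; the strand setting and annotation were not given in the sources used here. A deposited table of normalized values and one with the authors' fold changes and p-values were not used. Genotype, sex and strain came from the labels, dose, age and time point from the study's methods. The channel genes and all lists were chosen with earlier results of these data known.

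Genes were filtered with filterByExpr (minimum count of 10, minimum total of 15), scaled by TMM, and tested with edgeR 4.0.16 (glmQLFit and glmQLFTest, R 4.3.3) in an unblocked design of 3 against 3 libraries. P-values were adjusted over all 13572 genes by the Benjamini-Hochberg method, with a threshold of 0.05. Fold changes used edgeR's prior count of 0.125, standard errors were the fold change over the root of its F statistic, and the plotted log2 CPM used a prior count of 2. DESeq2 1.42.0 and limma 3.58.1 (voom) were alternatives. At 3 against 3 libraries the smallest two-sided p of the exact permutation test is 0.1. CPM means and SDs were taken over libraries. The steps were tested on simulated data. The genes named were Cacna1b and Hcn3, members past a threshold, those highest per length, and the 2 with the most counts in each family; Kcnk10 and members with groups that do not overlap were added after their values were seen. Some genes are counted but not reported by name here. Exon overlap and length came from GENCODE M21 on GRCm38, matched by symbol for 22795 genes and by an older symbol for 871, with 397 unmatched. Of the 40 channel genes, 18 share exonic bases with another gene.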

Additional observations from a re-analysis of the deposited data

How the results depend on the processing

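The median log2 fold change of the channels other than Cacna1b and Hcn3 stayed below 0 in all 16 alternatives, from -0.54 to -0.26, and from -0.48 to -0.26 with 1 library left out, the -0.26 without Nr2e3-/- replicate 3. The counts were less stable. The count of members at an adjusted p under 0.05 (2 in edgeR) was 5 with limma-voom (4 lower and 1 higher, where it called 7.91% and 9.48% of all genes), 1 among members with no exon overlap and 0 with the replicate block, and 0 to 8 when 1 library was left out, the 8 without Nr2e3-/- replicate 1. The count lower at an unadjusted p under 0.05 (8 of 40) was 16 with limma-voom, where the share of all genes was 17.9% in place of 9.72%. It was 5 with all libraries thinned to the smallest, where 30 members were tested, and 6 to 12 with 1 library left out. Among the 16 members with a mean of at least 50 counts it was 5, and among the 22 members with no exon overlap it was 4. These totals hold for the other counts of both sets, so that a smaller count there need not be a smaller share. The count higher (1) was 3 with limma-voom and 0 after thinning, at the mean of 50 counts or with no exon overlap, and 0 to 3 with 1 library left out. Members whose groups did not overlap (11) numbered 6 after thinning, 3 at the mean of 50 counts, 6 with no exon overlap, and 12 to 19 with 1 library left out, where fewer libraries make overlap rarer. The restriction to members with no exon overlap was chosen after seeing the data.

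Over all genes, edgeR called 13 genes, 8 with upper quartile scaling, 7 after thinning, 70 without a filter and 0 with the replicate block, whereas DESeq2 called 1093 and limma-voom 2360. Leaving out WT replicates 1, 2 and 3 gave 0, 2 and 0 calls, and leaving out Nr2e3-/- replicates 1, 2 and 3 gave 3022, 18 and 0. The cause was not tested. Libraries with the same number did not deviate together (r of -0.08, 0.22 and 0.02 across genes), so that the numbers do not pair them. Of the values of single members, 562 kept their direction and side of the threshold, 10 passed it, 10 fell short of it, 6 moved and 0 that were called changed sign. Depth limits the members with few counts, such as Kcnab1, Cacnb3 and Kcne4, for which fewer than 10 counts lie behind some or all Nr2e3-/- values.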
